A study of Mus musculus with 14 samples.

Results

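The MHC class III neighbourhood is the gene-dense stretch of mouse chromosome 17 that separates the class II from the class I genes of the major histocompatibility complex. It was followed here in mouse embryonic stem (ES) cells under inhibition of the kinase mTOR (mTORi), which brings wild-type cells into a dormant state. The study reports that cells without *Tet1* and *Tet2* start this programme but do not complete it. The members were selected by position, as every gene that starts within a window of 800 kb on chromosome 17 (mm10), 3 genes aside. This gave 92 of the 54446 gene identifiers in the data, the first starting at position 34501107 and the last ending at 35279414. The stretch was picked from these same data because *Btnl7-ps*, *Ddah2* and *Ly6g6d* were higher than at 0 h at the mTORi times. These 3 genes are therefore described with no test in either genotype, and so are the wild-type changes of all members. The other members were tested in cells labelled as *Tet1/2* knockout, since their own values did not enter the choice. At the edges of the window lay silent genes: *Gm15331* just inside on the class II side was at 0 TPM in all libraries and *Btnl5-ps* just outside reached 0.00987, while on the class I side *Gm18733* inside reached 0.205 and *Gm18734* outside stayed at 0.

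RNA-seq was made from the E14 ES cell line, grown on gelatin without feeders in serum and LIF. Wild-type cells (WT) were collected untreated (0 h) and after 24, 72 and 144 h of the mTOR inhibitor Ink128. Cells of the *Tet1/2* double knockout (DKO), a single sorted Cas9-deleted clone of the same line, were collected at 0, 24 and 72 h of the same inhibitor. Each of the 7 groups holds 2 replicates, 14 libraries in all, so p-values measure the spread between these pairs of cultures of 1 line and 1 clone.

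The class III stretch is named for complement and cytokine genes of the immune system that lie in it, such as *C4b*, *Cfb* and *Tnf*, but it also holds many genes that serve every cell. They include RNA helicases and export factors, subunits of the NELF and LSM complexes, chaperones of the HSP70 family and enzymes of lipid and sugar metabolism. A cluster of LY6 genes, which encode small cell-surface proteins held by a lipid anchor, sits in its middle. mTOR drives ribosome and protein synthesis, and its inhibition holds ES cells and blastocysts in a reversible pause. TET enzymes oxidise methylated cytosine, mostly at CpG, the first step of active demethylation.

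Expression is given as spike-in normalized TPM. TPM scales transcripts per length to a fixed total per library, and the spike-in factor, 1 per library, sets libraries against the ERCC RNA added to them. Whether that RNA was added per cell or per amount of RNA is not given in the sources used here. Over the 18232 genes tested, the median change was −0.33 (log2) in WT at both 24 h and 72 h and −0.83 at 144 h, and −0.49 and −0.12 in DKO at 24 and 72 h. Without the factor, as deposited, these medians lay between −0.0077 and 0.14. The factor ran from 1 to 2.81, and the DKO pairs differed in it, with 2.24 and 1.36 at 24 h. Fewer cells of a type and less RNA per cell cannot be told apart in bulk samples. The 6 ES cell markers, *Pou5f1* and *Nanog* among them, summed to 5197 to 12920 TPM in every library. Of the 6 leukocyte markers, *Ptprc* and *Adgre1* stayed at or below 0.107, *Csf1r* reached 0.733, *Cd14* 1.27 and *Itgam* 4.65, and *Cd68* lay between 8.14 and 56.0 TPM. Fibroblast markers summed to 4.69 to 44.0 and endothelial markers to 40.1 to 188. The 5 endoderm markers summed to a mean of 189 in WT at 24 h, against 46.3 at 0 h, and to 57.5, 74.5 and 49.7 in DKO at 0, 24 and 72 h. *Tet2* averaged 207 TPM in WT and 53.3 in DKO at 0 h, whereas *Tet1* averaged 410 and 388. A gene-level TPM does not separate the deleted exons, so *Tet1* does not check the label.

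Many genes of the neighbourhood were near silent, though a smaller share than of all genes. A mean of 1 TPM was reached by 33.5% of all gene identifiers and 50% of the members. A mean of at least 1 TPM over the 14 libraries was reached by 46 of the 92 members, 39 of them protein coding, which were tested; 46 stayed below, 19 of them protein coding, with means up to 0.931. Of the tested members, 29 overlap another gene, and 4 are small RNA genes inside *Ddx39b* or *Prrc2a*, whose reads may be those of the host. The highest levels per length belonged to genes of RNA handling. *Ddx39b*, an RNA helicase of mRNA export, stood at 661 and 551 TPM in the WT 0 h libraries, and the host transcript of small nucleolar RNAs *1110038B12Rik* at 578 and 757. By contrast, the cytokine gene *Tnf* was above 0 in 1 of the 14 libraries, at 0.0296 TPM, and the complement gene *Cfb* and the macrophage gene *Aif1* in 4 each. The members summed to a mean of 3595 TPM in WT at 0 h, 1937 at 144 h, and 4051, 2802 and 3370 in DKO at 0, 24 and 72 h.

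In DKO cells, more members were called lower than higher at 24 h, and 1 was higher and 1 lower at 72 h, among the 43 tested members other than *Btnl7-ps*, *Ddah2* and *Ly6g6d*. At 24 h, 1 of these 43 rose and 9 fell (limma, Benjamini-Hochberg adjusted p under 0.05), where 0.505% of all genes tested rose and 18.7% fell. *Ly6g6e* rose, and it overlaps *Ly6g6d*, which is 1 of the genes of the choice. *Gpsm3*, *Pbx2*, *Agpat1*, *Hspa1b*, *Hspa1a*, *Lsm2*, *Csnk2b*, *Apom* and *Lst1* fell, and these 9 are a share near that of all genes. At 72 h *Ly6g6e* rose and *Apom* fell, against backgrounds of 0.713% and 2.95%. The genes of the choice are left out of these counts, since nothing can be read from their calls. Over all 46 tested members the median change was −0.61 at 24 h and −0.23 at 72 h.

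The count of calls depended on how replicates and scale were treated. The replicate numbers pair the libraries within a genotype, and with that pairing in the fit 3 of the 43 members were higher and 21 lower at 24 h (background 1.95% and 38.1%) and 3 higher and 7 lower at 72 h (5.34% and 13.2%). The 3 higher ones were *Msh5*, *Mpig6b* and *Ly6g6e* at both times. *Mpig6b* passed the filter only through its treated libraries, so its place among them is no evidence of a rise, and without it *Msh5* and *Ly6g6e* are left. On the deposited TPM these 3 genes and *Abhd16a* were higher at both times, with 7 lower at 24 h and 5 at 72 h. The backgrounds on that scale were 11.6% higher and 13.3% lower at 24 h and 17.2% and 9.06% at 72 h, so that 4 of 43 (9.30%) was a share below that of all genes. The number of members called also moved, up or down, when 1 DKO library was left out, which leaves 1 library in its group. Such counts hold genes of the choice and have no share of all genes beside them, so they are not given.

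*Btnl7-ps*, a pseudogene of the butyrophilin-like family at the class II end (chr17:34532877-34547651, minus strand), had the largest log2(TPM + 1) change of the tested members upward in DKO at both times. The DKO libraries stood at 6.02 and 4.30 TPM at 0 h, 23.6 and 15.3 at 24 h, then 23.1 and 15.6 at 72 h. Every treated library lay above both untreated ones. The means were 3.78 and 3.76 times the 0 h mean, a log2 change of 1.72 ± 0.33 and 1.72 ± 0.33 (SE). As 1 of the genes of the choice it gets no test. The WT libraries read 5.17 and 4.66 at 0 h, 19.0 and 25.4 at 24 h, 19.7 and 20.1 at 72 h, then 13.4 and 11.6 at 144 h. On the spike-in scale they peaked at 24 to 72 h and had come part of the way down by 144 h. The deposited WT means moved less after the rise, from 2.33 at 0 h to 13.5, 12.7 and 12.1 at 24, 72 and 144 h.

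*Ddah2*, the gene of the choice in the middle of the stretch, encodes a member of the dimethylarginine dimethylaminohydrolase family, enzymes that clear methylated arginine, and spans chr17:35059035-35062095 on the plus strand. Its RefSeq promoter window (GRCm38.p6, chr17:35058785-35059084, plus strand) runs from 250 bases before to 50 after the RefSeq start site. It is shown with that of *Ly6g6d* (chr17:35078007-35078306, minus strand) and of *Apom* (chr17:35131752-35132051, minus strand), since *Ddah2* and *Ly6g6d* were among the genes that chose the stretch and *Apom* fell furthest at 72 h in DKO. The start site of the *Apom* window lies 249 bp from the start of the gene in the files' annotation. Capitals mark CpG, the site of TET action, with 12, 10 and 9 in these windows, against a median of 7 over the 32851 RefSeq windows and 16 over the 31 tested members with a window.
Ddah2: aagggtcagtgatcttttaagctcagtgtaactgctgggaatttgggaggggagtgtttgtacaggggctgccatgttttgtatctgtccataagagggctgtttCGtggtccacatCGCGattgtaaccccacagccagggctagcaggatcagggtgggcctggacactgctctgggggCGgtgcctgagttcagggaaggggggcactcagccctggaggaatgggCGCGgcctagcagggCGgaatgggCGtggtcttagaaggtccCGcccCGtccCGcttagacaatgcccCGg
Ly6g6d: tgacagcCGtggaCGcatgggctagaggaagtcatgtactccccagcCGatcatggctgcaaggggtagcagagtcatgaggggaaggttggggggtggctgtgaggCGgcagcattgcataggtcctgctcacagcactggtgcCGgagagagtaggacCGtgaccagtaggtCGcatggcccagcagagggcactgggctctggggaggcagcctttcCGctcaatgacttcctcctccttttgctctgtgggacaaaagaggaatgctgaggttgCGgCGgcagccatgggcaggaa
Apom: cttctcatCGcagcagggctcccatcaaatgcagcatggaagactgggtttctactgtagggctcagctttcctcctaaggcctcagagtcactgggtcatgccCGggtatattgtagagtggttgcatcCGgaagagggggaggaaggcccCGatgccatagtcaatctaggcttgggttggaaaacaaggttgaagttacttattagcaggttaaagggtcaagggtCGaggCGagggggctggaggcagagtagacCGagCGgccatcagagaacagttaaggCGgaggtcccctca

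*Ddah2* stood at 52.6 and 51.5 TPM in the DKO 0 h libraries, 101 and 64.2 at 24 h, then 115 and 84.2 at 72 h. All 4 treated libraries were above both untreated ones, but the 2 libraries of each treated pair lay far apart. The log2 changes were 0.62 ± 0.28 and 0.91 ± 0.28 on the spike-in scale and 1.16 and 1.19 on deposited TPM, given with no test because the gene was among those of the choice. The WT libraries read 43.1 and 38.4 at 0 h, 90.9 and 115 at 24 h, 109 and 103 at 72 h, then 77.1 and 69.1 at 144 h. They too were highest at 24 to 72 h, on the spike-in scale only. The deposited WT means were 19.3 at 0 h and 62.8, 67.5 and 70.6 at 24, 72 and 144 h.

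*Mpig6b* and *Ly6g6c* follow, 597 bp after the end of *Ddah2*, and overlap each other on opposite strands. *Mpig6b* encodes an inhibitory receptor known from megakaryocytes and platelets. It was low throughout, with 0.605 and 0.192 TPM in DKO at 0 h, 1.71 and 0.854 at 24 h, then 2.19 and 1.64 at 72 h, and passed the filter through its treated libraries. All 4 treated DKO libraries exceeded the untreated ones. The means were 3.22 and 4.81 times the 0 h mean, and the log2 changes 0.70 ± 0.34 and 1.07 ± 0.34. A gene that enters the fit by its treated libraries had to be higher in them, so these values are a description with no test. In WT it went from 0.458 and 0.540 at 0 h to 1.05 and 1.95 at 24 h, 2.31 and 2.64 at 72 h, then 2.49 and 1.89 at 144 h, and its lowest treated library was above both untreated ones. It lay just outside the 3 genes that chose the stretch, since at 24 h it did not pass the threshold. *Ly6g6c* ran from 0.242 to 2.26 TPM over the 14 libraries, and its untreated and treated DKO libraries overlapped at 24 h. It too passed the filter through its treated libraries.

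*Ly6g6d* and *Ly6g6e*, a pair of LY6 surface-protein genes, overlap head to head on opposite strands over 1164 bp, of which 229 bp are exonic in both. Whether the counting used strand is not given in the sources used here, so part of the reads of one may have been counted for the other. *Ly6g6d* stood at 5.11 and 8.98 TPM in DKO at 0 h, 12.7 and 15.2 at 24 h, then 25.2 and 20.5 at 72 h. Each treated library was above both untreated ones, and at 72 h the mean was 3.25 times that at 0 h. The log2 change was 0.93 ± 0.34 at 24 h and 1.60 ± 0.34 at 72 h, again with no test. In WT *Ly6g6d* read 5.02 and 3.59 at 0 h, 12.1 and 13.7 at 24 h, 15.5 and 11.8 at 72 h, then 9.24 and 8.74 at 144 h.

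*Ly6g6e* was the more abundant of the pair. It stood at 24.8 and 27.1 TPM in DKO at 0 h, 89.95 and 57.4 at 24 h, then 75.7 and 48.7 at 72 h, with every treated library above the untreated ones. It rose by 1.44 ± 0.30 (log2; adjusted p = 0.00339) and 1.20 ± 0.30 (adjusted p = 0.0312). The call at 24 h held without any 1 library. At 72 h it was lost in 8 of the 14 fits that left out 1 library, each DKO 0 h and 72 h library among them, with adjusted p up to 0.182. WT libraries read 19.8 and 21.5 at 0 h, 65.7 and 84.5 at 24 h, 55.4 and 48.9 at 72 h, then 27.7 and 26.6 at 144 h, so that at 144 h only a small difference was left on the spike-in scale. It thus fell outside the genes higher at every WT time by its 144 h value.

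*Msh5*, which acts with *Msh4* in meiotic crossing over, lies on the class II side of the same run, with *Clic1* between it and *Ddah2*. Its DKO libraries stood at 3.10 and 2.20 TPM at 0 h, 8.68 and 3.95 at 24 h, then 8.65 and 5.30 at 72 h, without overlap between treated and untreated. The log2 changes of 0.93 ± 0.38 and 1.11 ± 0.38 missed the threshold (adjusted p = 0.0905 and 0.108) and passed with the pairing (adjusted p = 0.0112 and 0.00954). *Msh4*, its partner elsewhere in the genome, changed by 0.17 and 0.48 in DKO at 24 and 72 h (adjusted p = 0.760 and 0.471). In WT, *Msh5* went from 2.31 and 1.29 at 0 h to 3.76 and 4.26 at 24 h, then 3.27 and 4.58 at 72 h, and at 144 h, with 2.34 and 1.92, overlapped the untreated libraries.

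**Figure D1:**
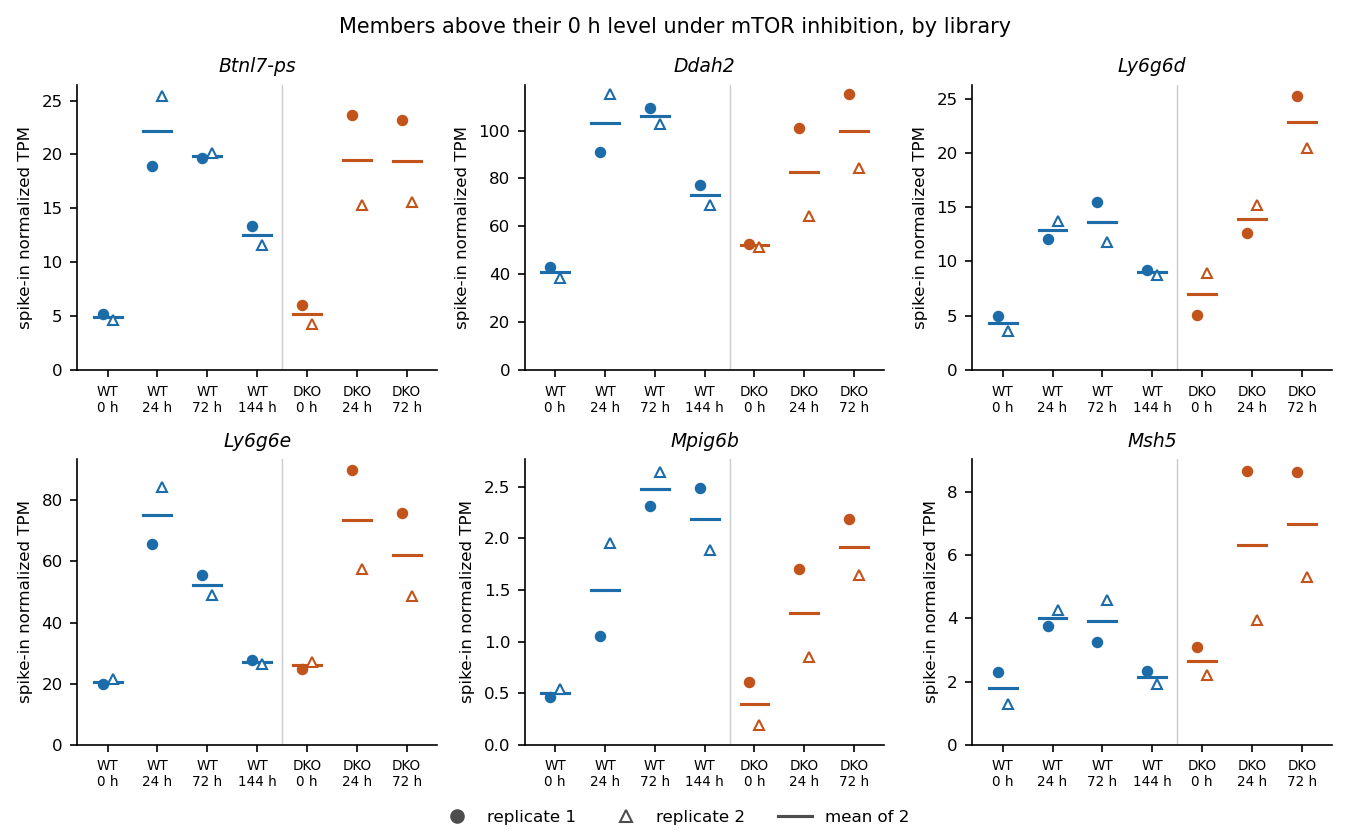
Spike-in normalized TPM of 6 members in each of the 14 libraries, by genotype and hours of mTORi; points are libraries, filled circles for replicate 1 and open triangles for replicate 2, and bars are the mean of 2. All 4 treated DKO libraries lie above both untreated DKO libraries in each panel, from 15.3 to 23.6 against 4.30 and 6.02 for *Btnl7-ps*.

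*Apom* showed the largest fall of the tested members in DKO at 72 h. It encodes apolipoprotein M, the carrier of sphingosine 1-phosphate in plasma lipoproteins, and lies at chr17:35128997-35132050 on the minus strand, between *D17H6S53E* and *Bag6*. DKO libraries read 14.4 and 27.4 TPM at 0 h, 4.30 and 5.27 at 24 h, then 2.60 and 2.57 at 72 h. The means at 24 and 72 h were 0.229 and 0.124 of the 0 h mean. The log2 changes were −1.86 ± 0.37 (adjusted p = 0.00246) and −2.54 ± 0.37 (adjusted p = 7.12e-04), and both calls held without any 1 library. On deposited TPM they were −1.21 and −1.96 (adjusted p = 0.0297 and 0.00371). WT libraries went from 18.4 and 12.1 at 0 h to 4.14 and 4.07 at 24 h, 2.66 and 1.67 at 72 h, then 1.57 and 0.918 at 144 h, each pair below the one before it. *Bag6*, the next gene, ranged in DKO from 293 to 524 TPM.

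*Gpsm3*, a regulator of G-protein signalling known from leukocytes, was lowest at 24 h. DKO libraries stood at 16.8 and 14.6 TPM at 0 h, 2.88 and 2.79 at 24 h, then 9.22 and 5.08 at 72 h. All treated libraries were below the untreated ones, and the 72 h pair lay above the 24 h pair. The log2 change was −2.12 ± 0.35 at 24 h (adjusted p = 7.66e-04), a call that held without any 1 library, and −1.08 ± 0.35 at 72 h (adjusted p = 0.0907, and 0.00699 with the pairing). WT followed the same course, from 14.7 and 14.4 at 0 h to 3.19 and 2.43 at 24 h, 6.94 and 4.31 at 72 h, then 5.07 and 3.84 at 144 h. *Gpsm3* overlaps *Pbx2*, a TALE homeobox gene, by 489 bp on the same strand, 227 bp of them exonic in both.

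*Hspa1b* and *Hspa1a* encode nearly the same stress-induced HSP70 chaperone and lie 9951 bp apart on the minus strand. Of the 50-base stretches of the longest *Hspa1a* transcript, 58.8% occur unchanged in that of *Hspa1b*, so reads of the pair could be split between them and the values of each are uncertain. Their promoter windows (GRCm38.p6, minus strand, chr17:34972107-34972406 for *Hspa1a* and chr17:34959189-34959488 for *Hspa1b*) are shown because these neighbours fell together. Capitals mark the 4 of 300 bases at which they differ.
Hspa1a: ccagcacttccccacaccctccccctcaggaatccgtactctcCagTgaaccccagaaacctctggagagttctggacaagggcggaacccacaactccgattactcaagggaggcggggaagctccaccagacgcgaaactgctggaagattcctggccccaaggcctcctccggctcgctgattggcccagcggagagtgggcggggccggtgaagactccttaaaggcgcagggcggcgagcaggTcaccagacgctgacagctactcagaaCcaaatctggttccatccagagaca
Hspa1b: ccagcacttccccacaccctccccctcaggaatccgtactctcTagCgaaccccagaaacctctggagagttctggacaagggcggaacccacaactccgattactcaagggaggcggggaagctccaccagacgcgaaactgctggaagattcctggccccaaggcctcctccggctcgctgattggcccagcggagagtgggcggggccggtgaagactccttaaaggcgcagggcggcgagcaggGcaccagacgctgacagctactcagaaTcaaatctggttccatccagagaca
*Hspa1b* read 7.69 and 6.89 TPM in DKO at 0 h, 2.16 and 1.21 at 24 h, then 3.54 and 2.93 at 72 h, and *Hspa1a* read 3.97 and 2.61, 1.16 and 0.723 and 1.48 and 1.60. Both were below 0 h in every treated library. At 24 h *Hspa1b* changed by −1.65 ± 0.34 (adjusted p = 0.00333), a call that held without any 1 library. *Hspa1a* changed by −1.14 ± 0.36 (adjusted p = 0.0311), a call lost without DKO 0 h replicate 1 (adjusted p = 0.258), 0 h replicate 2 (adjusted p = 0.0531) or 24 h replicate 2 (adjusted p = 0.166), and on deposited TPM (adjusted p = 0.0666). At 72 h neither passed (adjusted p = 0.116 and 0.257), and with the pairing *Hspa1b* did (adjusted p = 0.0167). In WT *Hspa1b* read 10.8 and 12.3 at 0 h and between 2.05 and 3.64 in all 6 treated libraries.

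The other calls at 24 h in DKO were of smaller size or rested on single libraries. *Lsm2*, a subunit of the ring that binds U6 RNA and decapping substrates, went from 272 and 261 TPM to 151 and 94.5 (log2 −1.15 ± 0.28, adjusted p = 0.00902). *Csnk2b*, the regulatory subunit of casein kinase 2, went from 341 and 368 to 221 and 154 (log2 −0.94 ± 0.26, adjusted p = 0.0181). The calls of *Lsm2* and *Csnk2b* were lost without DKO 0 h replicate 1 (adjusted p = 0.0867 and 0.113) or 24 h replicate 2 (adjusted p = 0.0907 and 0.138), and that of *Csnk2b* also without 0 h replicate 2 (adjusted p = 0.108) and on deposited TPM. *Pbx2* and *Agpat1*, an acyltransferase of phospholipid synthesis, changed by −0.92 ± 0.32 and −0.91 ± 0.30 (adjusted p = 0.0476 and 0.0374). Each of these 2 calls was lost in 9 of the 14 fits that left out 1 library, with adjusted p up to 0.381 and 0.246. *Lst1*, a transmembrane gene of leukocytes, went from 3.69 and 8.74 TPM at 0 h to 0.474 and 2.51 at 24 h (log2 −1.57 ± 0.52, adjusted p = 0.0389). Its call was lost without DKO 0 h replicate 2 (adjusted p = 0.215), without 24 h replicate 1 (adjusted p = 0.168), without either WT 72 h library (adjusted p = 0.052 and 0.0521) and on deposited TPM (adjusted p = 0.294).

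*Nfkbil1*, which lies beside the cytokine genes and is related in sequence to inhibitors of NF-kB, stood at 20.6 and 19.1 TPM in DKO at 0 h, 13.7 and 8.19 at 24 h, then 9.34 and 7.30 at 72 h. All treated libraries lay below the untreated ones, with log2 changes of −0.84 ± 0.34 and −1.17 ± 0.34 that missed the threshold (adjusted p = 0.0835 and 0.0582) and passed with the pairing (adjusted p = 0.0105 and 0.00316). Its WT libraries went down to 5.83 and 5.16 at 144 h, from 19.3 and 14.6 at 0 h.

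Among the 46 members below the filter, *Ly6g5c*, a LY6 gene between *Abhd16a* and *Ly6g5b* (chr17:35108279-35111991, plus strand), changed most plainly. It read 4.61 and 3.02 TPM in the DKO 0 h libraries and was listed at 0 in all 4 treated DKO libraries. WT libraries read 1.99 and 1.74 at 0 h, 0.278 and 0.372 at 24 h, 0.457 and 0.213 at 72 h, then 0 and 0.212 at 144 h. In a fit of all 38890 genes above 0 in any library, it was called lower in DKO at 24 h and 72 h (adjusted p = 0.00249 and 0.00349), where 5.93% and 1.07% of genes fell. Its direction was thus opposite to that of *Ly6g6d* and *Ly6g6e*. In the same fit, *Lta*, a cytokine gene next to *Tnf*, and *Gm16181*, which overlaps *Nfkbil1*, were called lower in DKO at 24 h (adjusted p = 0.0362 and 0.0400), from 0 h levels of at most 0.339 and 1.08 TPM.

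**Figure D2:**
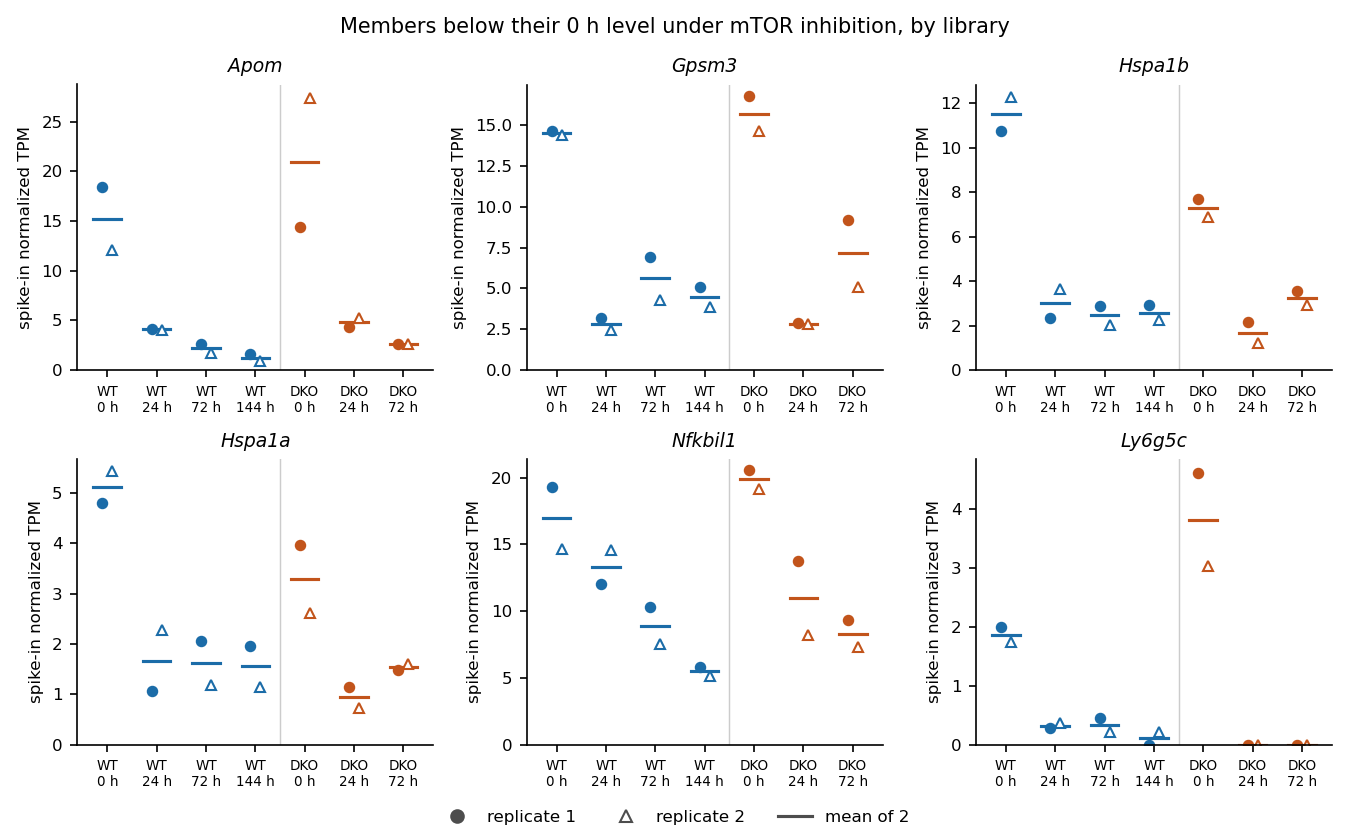
Spike-in normalized TPM of 6 members in each of the 14 libraries, drawn as for the members above their 0 h level. All 4 treated DKO libraries lie below both untreated DKO libraries in each panel, and *Ly6g5c* is listed at 0 in them.

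By role, the 7 LY6 genes and their neighbours went both ways in DKO. *Ly6g6e* rose at both times while *Ly6g5c* fell at both, as given above. *Ly6g5b*, the gene next to *Ly6g5c*, stood at 2.31 and 0.890 TPM at 0 h, 1.20 and 0.240 at 24 h, then 1.28 and 0.777 at 72 h, with treated and untreated libraries overlapping, and *Ly6g6f* stayed at or below 0.523. The median log2 change of the 4 tested genes was 0.81 at 24 h and 1.13 at 72 h. The filter and the choice of the stretch favour higher values in 3 of these 4, *Mpig6b*, *Ly6g6c* and *Ly6g6d*, and *Ly6g5c*, which fell, is below the filter. The 12 genes of RNA handling and transcription were all tested. Of these, *Pbx2* and *Lsm2* fell at 24 h and none was called at 72 h, and their medians of −0.67 and −0.24 lay near those of all genes (−0.49 and −0.12). Over all genes tested 18.7% fell at 24 h and 2.95% at 72 h. Of 6 genes of protein folding and turnover 5 were tested, with *Hspa1a* and *Hspa1b* lower at 24 h, none called at 72 h and medians of −0.69 and −0.23. Of 10 enzyme, lipid and transport genes 9 were tested. *Agpat1*, *Csnk2b* and *Apom* fell at 24 h and *Apom* alone at 72 h, with medians of −0.57 and −0.33. On deposited TPM the medians of the last 3 groups in DKO at 24 h were −0.11, −0.16 and −0.057. With the pairing, *Pbx2*, *Stk19*, *Dxo*, *Nelfe*, *Zbtb12*, *Lsm2*, *Gpank1* and *Prrc2a* of the RNA genes were lower in DKO at 24 h. *Msh5* was higher. Lower too were *Rnf5*, *Fkbpl*, *Hspa1b*, *Hspa1a*, *Agpat1*, *Ppt2*, *Csnk2b* and *Apom*. At 72 h *Lsm2*, *Hspa1b* and *Apom* were lower and *Msh5* higher. In that fit 1.95% of all genes rose and 38.1% fell at 24 h, and 5.34% and 13.2% at 72 h.

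The immune genes gave few values to compare. Of the 12 complement and leukocyte genes listed, 11 were found and 4 tested, *C2*, *Lst1*, *Ltb* and *Nfkbil1*, of which *Lst1* was called, at 24 h in DKO. With the pairing *Lst1* and *Nfkbil1* were lower in DKO at 24 and 72 h, where 38.1% and 13.2% of all genes fell. *C2*, a complement protease, differed more between replicates than between times, with 10.1 and 2.04 TPM in DKO at 0 h, 5.93 and 0.727 at 24 h, then 2.95 and 7.58 at 72 h. The 6 leukocyte markers summed to between 9.02 and 61.8 TPM per library, most of it *Cd68*, a lysosomal membrane protein, whose mean went from 52.4 at 0 h to 16.2 at 24 h in DKO and from 42.6 to 13.6 in WT. *Itgam*, an integrin of myeloid cells, ranged from 0.428 to 4.65 over the 14 libraries. *Ptprc* was at 0 in 5 libraries and *Adgre1* in 11. The part of these markers in the fall of *Gpsm3* and *Lst1* was not tested. Of the 3 butyrophilin-like and MHC genes, *Btnl6* was below the filter, and *H2-D1*, a classical class I molecule, stood at 22.9 and 22.3 TPM in WT and 42.6 and 36.9 in DKO at 0 h and was not called in either genotype under mTORi on the spike-in scale. With the pairing it was lower in DKO at 24 h (−0.81 ± 0.24, adjusted p = 0.0114), and on deposited TPM it was higher in WT at 144 h. Of 8 signalling, matrix and other genes 3 were tested, *Gpsm3*, *Sapcd1* and *Notch4*. *Notch4*, a receptor known from endothelium, ranged from 21.3 to 59.5 TPM with untreated and treated libraries overlapping in both genotypes.

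The values in WT are a description, and since the choice used these contrasts nothing is read from the counts or from the backgrounds beside them. At 24 h, 4 members were called higher and 4 lower (background 1.25% and 8.73%), at 72 h 5 and 4 (0.697% and 7.6%), and at 144 h 4 and 21 (0.461% and 50.5%). Of the 41 members other than the 3 genes of the choice and *Mpig6b* and *Ly6g6c*, which passed the filter through treated libraries, 1 was higher at 24 h and 1 at 72 h, *Ly6g6e* both times, and none at 144 h. The lower ones were 4, 4 and 21 of these 41. *Gpsm3*, *Hspa1b*, *Hspa1a* and *Apom* were lower at all 3 times. The 3 lowest changes at 144 h were those of *Apom* (−2.84 ± 0.37), *Hspa1b* (−1.81 ± 0.34) and *Gpsm3* (−1.52 ± 0.35), and the 3 highest those of *Btnl7-ps* (1.19 ± 0.33), *Mpig6b* (1.08 ± 0.34) and *Ly6g6d* (0.93 ± 0.34). At each time fewer members were called when any 1 WT library of the groups compared was left out. With the replicate pairing the calls were 5 higher and 8 lower at 24 h (4.48% and 25.7%) and 6 and 11 at 72 h (2.85% and 25.4%). At 144 h they were 4 and 29, where 67.4% of all genes were called in either direction. The endoderm markers were at their highest in WT at 24 h, as given above, and their part in these values was not tested.

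The fall at 144 h in WT depended on the scale for most members. On deposited TPM, 13 members were higher and 3 lower at 144 h (background 15.6% and 11.7%), 11 and 6 at 24 h (15.8% and 14.1%) and 10 and 4 at 72 h (12.6% and 11.4%). *Apom*, *Hspa1b* and *Nfkbil1* were lower on both scales at 144 h. *Bag6*, a chaperone of tail-anchored proteins, and *Ddx39b* went from −0.85 and −0.81 on the spike-in scale to 0.18 and 0.22 on deposited TPM, while the median of all genes moved from −0.83 to 0.055. Relative to that median on the spike-in scale they changed by −0.019 and 0.019. *Ddah2* was higher on both, by 0.83 and 1.82.

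**Figure D3:**
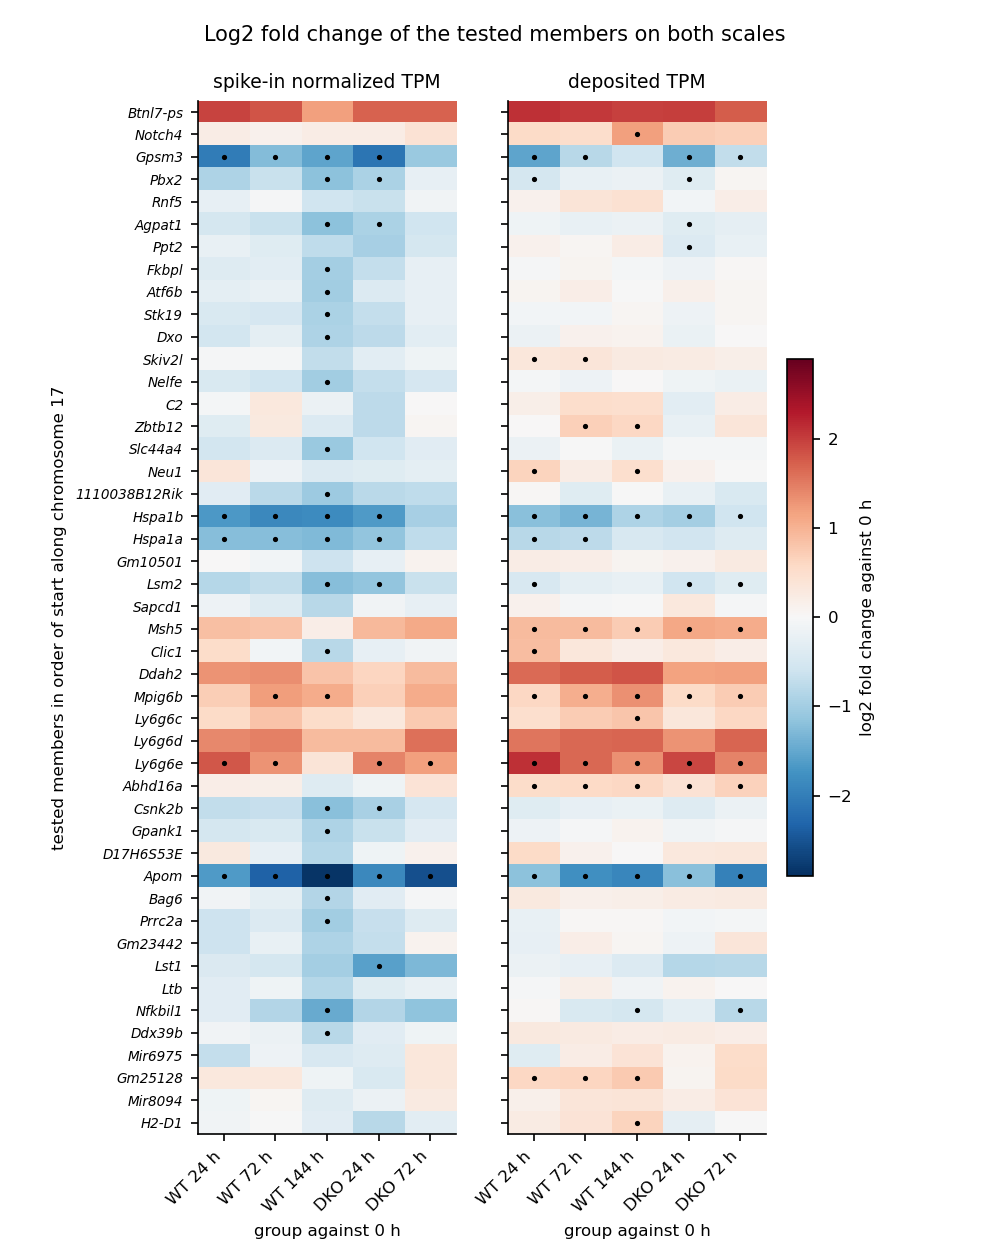
Log2 fold change of the 46 tested members against 0 h of the same genotype, on spike-in normalized TPM (left) and deposited TPM (right), in order of position; red is higher, blue lower, and a dot marks an adjusted p under 0.05, with none drawn for *Btnl7-ps*, *Ddah2* and *Ly6g6d*. The 21 blue cells with a dot in WT at 144 h on the left become 3 on the right. Dots in the WT columns and on *Mpig6b* and *Ly6g6c* are a description and no test, since the choice or the filter used those values.

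In order of position, the consecutive tested members from *Ddah2* to *Ly6g6e* had positive log2 changes in both genotypes at 24 and 72 h, which is given as a description. Of these 5, *Ddah2* and *Ly6g6d* chose the stretch, *Mpig6b* and *Ly6g6c* entered the tested set through their treated libraries, and *Ly6g6e* overlaps *Ly6g6d*. In DKO the 5 ran from 0.30 to 1.44 at 24 h, and at 72 h from 0.76 to 1.60. The gene before them, *Clic1*, a chloride intracellular channel protein 285 bp from *Ddah2*, changed by −0.24 ± 0.28 and −0.10 ± 0.28. *Abhd16a*, a phosphatidylserine lipase 10458 bp beyond *Ly6g6e*, changed by −0.12 ± 0.31 and 0.40 ± 0.31. Without the genes of the choice, *Mpig6b*, *Ly6g6c* and the 4 nested small RNA genes, the change of next neighbours in DKO differed by a median of 0.50 at 24 h and 0.46 at 72 h over 36 pairs, against 0.51 and 0.44 over all 666 pairs of these 37 members. Neighbours in this reduced order, some of them not adjacent in the full one, were thus about as far apart as any pair. Over all 46 tested members, neighbours in DKO differed by 0.50 at 24 h and 0.46 at 72 h, against 0.60 and 0.62 over all pairs. That set holds the genes of the choice and those that the filter favoured. These pairs share libraries, so the values describe this stretch only.

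**Figure D4:**
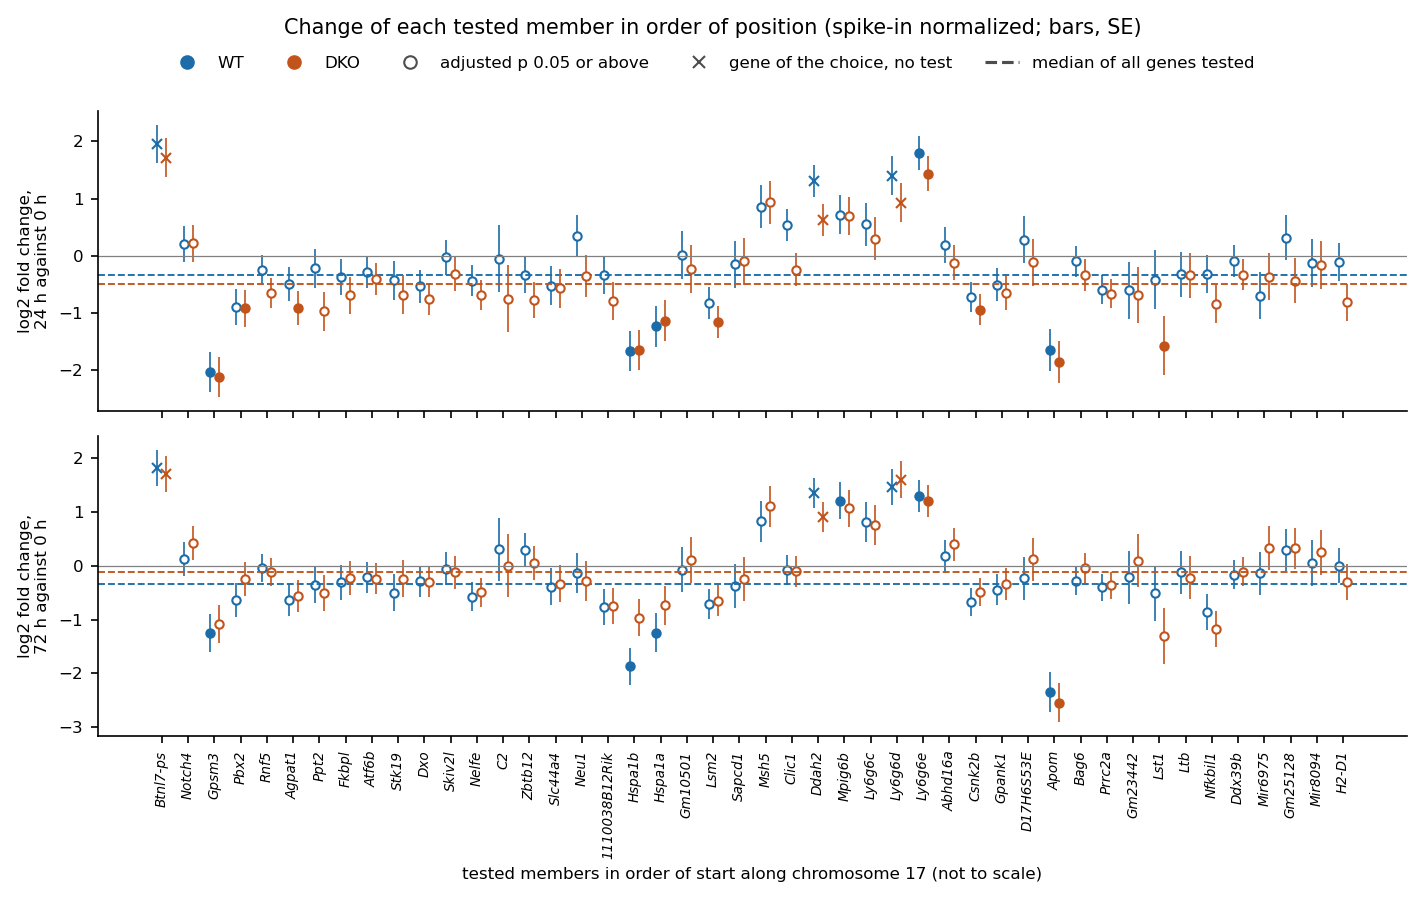
Log2 fold change against 0 h on spike-in normalized TPM at 24 h (top) and 72 h (bottom) for the 46 tested members in order of start, in WT and DKO; bars are SE, filled points have an adjusted p under 0.05, crosses are the 3 genes of the choice, drawn with no test, and dashed lines are the medians of all genes. *Apom*, *Gpsm3*, *Hspa1b* and *Hspa1a* lie below the medians in both genotypes. The fill of WT points and of *Mpig6b* is a description and no test, since the choice or the filter used those values.

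Stretches of the same width on either side held 1 called rise in DKO. Of the 70 genes on the class II side 39 were tested, of which none rose and 10 fell in DKO at 24 h and none rose and 2 fell at 72 h. Over all genes 0.505% rose and 18.7% fell at 24 h, and 0.713% and 2.95% at 72 h. Of the 65 on the class I side 35 were tested, with none higher and 11 lower at 24 h, and 1 higher and 2 lower at 72 h. Their medians in DKO at 24 h were −0.52 and −0.68, and those at 72 h −0.21 and −0.32. The difference between the stretches was not tested.

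No member was called between DKO and WT on the spike-in scale by limma. The counts were 0 of 46 at 0, 24 and 72 h, where 0.0439%, 0.0439% and 0.329% of all genes were called, and 1, 0 and 1 members had an unadjusted p under 0.05. *H2-D1* differed most plainly at 0 h, by 0.79 ± 0.33 (adjusted p = 0.550). On deposited TPM, *Atf6b*, a membrane-bound transcription factor of the endoplasmic reticulum stress response, was lower in DKO at 0 h (−0.48, adjusted p = 0.0497) and 72 h (−0.63, adjusted p = 0.0101), and *Ddah2* at 72 h (−0.51). Backgrounds there were 0.598% at 0 h, 1.37% at 24 h with 0 members called, and 4.01% at 72 h. The *Ddah2* difference uses values on which the gene was selected and is given without a test.

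No member was called for a different response to mTORi in the 2 genotypes either, with 0 of 46 at 24 h and at 72 h by limma (background 0.00548% and 0%) and 0 at an unadjusted p under 0.05. By the fit with the pairing 0 were called, and 4 and 1 had an unadjusted p under 0.05. The DKO response minus the WT response ran from −1.15 to 0.33 at 24 h, and at 72 h from −0.80 to 0.90. For *Ddah2* it was −0.69 ± 0.40 and −0.45 ± 0.40, for *Ly6g6e* −0.36 ± 0.42 and −0.10 ± 0.42, and for *Apom* −0.22 ± 0.52 and −0.20 ± 0.52. With 2 replicates a group the SE of these differences ran from 0.36 to 0.83 over the tested members, which limits what could be detected. The DKO and WT values share no library, but the values of the 3 genes of the choice are set by it.

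None of the partners of the members elsewhere in the genome was called higher under mTORi in DKO. Of 28 genes for subunits of complexes that members belong to (NELF, SKI, LSM, BAG6, casein kinase 2, TREX and others), 13 fell and none rose in DKO at 24 h, with a median of −0.79, where 18.7% of all genes fell, and none was called at 72 h, with a median of −0.42. Of the 7 other LSM subunits 6 fell at 24 h, *Lsm5* by the most (−1.52, adjusted p = 0.00144), while *Lsm8* missed the threshold (−0.65, adjusted p = 0.118). *Lsm2* itself changed by −1.15. Of 13 paralogs of members, 10 were tested and 1, *Ly6e*, was called, lower in DKO at 24 h. *Ddah1*, the other enzyme of the *Ddah2* family, changed by −0.12 at 24 h and 0.36 at 72 h (adjusted p = 0.791 and 0.504). *Ly6a* and *Ly6k*, LY6 genes of another chromosome, changed by −0.18 and −0.23 in DKO at 24 h (adjusted p = 0.891 and 0.643). Calls in the other direction were *Ctsa*, a lysosomal protease that holds *Neu1* in its complex, higher in WT at 24 h (1.47, adjusted p = 0.0143), and *Ly6k*, higher in DKO than in WT at 72 h (1.53, adjusted p = 0.0480).

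Promoter windows were found in RefSeq for 46 members by symbol, 31 of them tested. The RefSeq start site lay within 50 bp of the start in the files' annotation for 20 of these 31, and over 500 bp from it for 5, *Pbx2*, *Agpat1*, *Zbtb12*, *Ly6g6c* and *Gpank1*, at most 15076 bp for *Zbtb12*, so that these windows show another start site. Motifs were sought on both strands of the 300 bases and described beside the share of all 32851 windows. The GC box GGGCGG was present in 18 of the 31 tested windows (58.1%, against 35.7% of all), *Ddah2*, *Msh5*, *Gpsm3* and both *Hspa1* genes included. The CCAAT box was present in 14 (45.2%, against 37.4%). The heat shock element core GAANNTTC was present in 3 (9.68%, against 7.86%), *Hspa1a*, *Hspa1b* and *Ddx39b*. The E-box CACGTG, the core of sites bound by TFE3 and related factors, was present in 1, that of *Atf6b* (3.23%, against 7.15%). The TATA box TATAAA was present in 3 (9.68%, against 13.6%), *1110038B12Rik*, *Ly6g6c* and *H2-D1*. None of these motifs was found in the windows of *Ly6g6d* or *Apom*, which says only that these letters are not in those 300 bases.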

How the data were processed

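Total RNA of sorted cells was spiked with ERCC RNA, depleted of ribosomal RNA and sequenced. Per the labels, in the submitters' processing notes, the tools were cutadapt 2.4, STAR 2.7.3a and StringTie 2.0 on mm10, and per the study's methods the annotation was GENCODE VM19. The deposited TPM values sum to one fixed total per library and were summed per gene identifier. Spike-in normalized TPM were obtained by multiplying them by 1 factor per library, the median ratio of the authors' spike-in normalized table to the deposited TPM, over 482 to 539 genes per library; the ratio was constant across genes within each library. The strand setting of the counting is not given in the sources used here, and the sequencing depth, to which the paper points, was not used here; TPM keep no read counts, so no counting error can be given.

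Values were analysed as log2(TPM + 1), which understates changes of low genes, for 18232 genes with a mean of at least 1 over the 14 libraries, with limma 3.58.1 in R 4.3.3 (mean-variance trend, all 7 groups in 1 fit, no block), adjusted by Benjamini-Hochberg over all genes. Adjusted p under 0.05 was called. The method was tested on simulated data. Promoters are from RefSeq (GRCm38.p6); transcripts and overlaps are from GENCODE vM21, whose coordinates equal the files' for all 92 members. *Ehmt2*, *Vars* and *Atp6v1g2* were left out by the rule of the stretch.

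Replicate numbers were checked for pairing by the correlation across genes of replicate differences between groups. It exceeded 0.1 in 3 of 3 pairs of times within DKO (0.222 to 0.341), in 5 of 6 within WT (0.0622 to 0.398) and in 1 of 12 between the genotypes (−0.501 to 0.116). The study's reporting summary states that the times of a replicate were processed in parallel, so numbers pair libraries within a genotype. Results of the fit with that block are given beside those of the main fit.

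The members and lists were chosen with earlier results of these data known. Members named with values in every library are *Btnl7-ps*, *Ddah2* and *Ly6g6d*, up to 4 with the largest change in each direction of those called in DKO or between genotypes, and the 3 highest and 3 lowest at 144 h in WT; values of other members were added after they were seen. Alternatives were the deposited TPM, centring on the library median, a pseudocount of 0.1, no filter, no trend, blocks on the replicate number, and leaving out each library.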

Additional observations from a re-analysis of the deposited data

Results flagged for a closer look

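Among the tested members, 3 moved in opposite directions in the 2 genotypes on the spike-in scale, in both libraries of each against its 0 h mean. This rule reads signs only, however small the change, and how many of all genes meet it was not counted. *Neu1*, the lysosomal sialidase, was above 0 h in both WT libraries at 24 h (0.18 and 0.52, log2) and below in both DKO libraries (−0.0045 and −0.71), a difference of −0.707 between the responses. *Clic1* did likewise, with 0.53 and 0.56 in WT and −0.037 and −0.44 in DKO, a difference of −0.783. *Mir6975*, a microRNA gene, was below 0 h in WT at 72 h (−0.26 and −0.029) and above in DKO (0.37 and 0.28), a difference of 0.469. Tested in limma as a difference of responses, none passed: the adjusted p was 1 for *Neu1* and *Clic1* and 0.9996 for *Mir6975* (unadjusted 0.189, 0.0632 and 0.425). For *Neu1*, the DKO 0 h libraries, at 12.2 and 7.45 TPM, lay on both sides of the 9.55 of DKO 24 h replicate 1. The list also depends on the scale. On deposited TPM none of the 3 did so at the same time, and *Ppt2* at 24 and 72 h, *H2-D1* and *Mir6975* at 24 h and *Pbx2* and *Stk19* at 72 h did so instead.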

How the results depend on the processing

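Counts of members called moved with the scale and the pairing. The counts here are over all 46 tested members, the genes of the choice included. On deposited TPM 17, 14 and 16 were called in WT at 24, 72 and 144 h and 12 in DKO at 72 h. Between genotypes 1 and 2 were called at 0 and 72 h. The shares of all genes called were 29.9%, 24.0%, 27.3%, 26.3%, 0.598% and 4.01%. Centring each library on its median gave 16 and 18 in WT at 24 and 72 h, 16 in DKO at 72 h, and 1 and 2 between genotypes at 0 and 72 h, where 30.7%, 26.2%, 28.1%, 0.554% and 1.69% of all genes were called. The replicate block within each genotype gave 13 and 17 in WT at 24 and 72 h and 27 and 13 in DKO at 24 and 72 h. The shares of all genes called were 30.2%, 28.3%, 40% and 18.5%. Joined to deposited TPM, an alternative chosen after seeing the data, the block gave 20, 17, 17 and 17. There 37.1%, 32.0%, 31.9% and 35.8% of all genes were called. Leaving out 1 library gave 4 to 11, 0 to 13 and 8 to 29 in WT at 24, 72 and 144 h, and 6 to 25 and 1 to 10 in DKO at 24 and 72 h. Members with no call changed direction with the scale at other times too. Among the calls of the main fit and the genes of the choice, all changes of direction were in WT at 144 h. There log2 changes turned positive on deposited TPM, with or without the block, for *Stk19* (0.049), *Dxo* (0.10), *Nelfe* (0.00038), *Clic1* (0.19), *Gpank1* (0.11), *Bag6* (0.18), *Prrc2a* (0.025) and *Ddx39b* (0.22). After centring they did so for *Clic1* (0.033) and *Ddx39b* (0.024). Scaling alone sets these; the cause of the others was not tested. A set of 60 single results held every call of the main fit and all time comparisons of *Btnl7-ps*, *Ddah2* and *Ly6g6d*. It takes in WT changes and genes of the choice, so it describes the processing and backs no call. Of these 60, 36 kept direction and call on deposited TPM, 39 after centring and 39 on deposited TPM with the block. With a pseudocount of 0.1 it was 56, without a filter 49 and without the trend 57. The block within each genotype kept 57, and the other 3 are *Ddah2* and *Ly6g6d* in DKO, genes of the choice. With 1 block across all libraries it was 59. Low members such as *Mpig6b* rest on values near the filter, and TPM give no depth for them.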
